A study of Phaffia rhodozyma with 29 samples.

Results

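Of 6469 gene models of the red yeast Xanthophyllomyces dendrorhous, 208 (3.22%) stayed under 0.5 CPM (the count of a gene over the total count of its library, times 1000000) in every one of 18 RNA-seq libraries, and they are called silent genes here. They were chosen by their counts alone, and a gene was a member if no library reached the limit. Their low counts are therefore given as a description. Their contig, their place among the other genes and the protein-DNA peaks on their contigs were not used to choose them.

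All strains derive from CBS 6938, and 3 libraries, named A, B and C after their labels, were made for each of 6 groups. Wild-type libraries form 2 groups, told apart by the suffix of their labels and named wild type (N) and wild type (Ne). A deletion of SRE1 defines sre1-, an interrupted CYP61 locus defines cyp61-, and cyp61- sre1- carries both. The sixth group is a strain whose Sre1 protein carries a FLAG tag (the tagged strain). No gene number is paired with SRE1 or CYP61 in the files, so the strains were not checked by their targeted gene. The RNA-seq labels do not say which of the study's 2 tagged strains, with or without the CYP61 interruption, the last group is. The wild-type, sre1- and tagged strains were grown to late exponential phase, per the design text, and the study also mapped tagged Sre1 on DNA by ChIP-exo. Total counts were 9300589 to 20663214 per library, so that 0.5 CPM stood for 4.65 reads in the smallest library and 10.3 reads in the largest.

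Sre1, the product of SRE1, is a sterol-responsive transcription factor of the SREBP family, and CYP61 codes for a cytochrome P450 that acts late in the making of ergosterol, the main fungal sterol. A gene model is a prediction of where a gene lies. In fungi, models without transcripts are often found near chromosome ends, which are known for repeats, families of similar genes and low transcription, and on short contigs that an assembler could not join to the rest. The files used here give each gene a number and a contig, with no product, position or sequence, so nothing is said of what a silent gene encodes, and no sequence is shown. CPM is not divided by gene length, so a short gene stays under the limit more easily than a long one with as many transcripts.

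By the rule the silent genes were under the limit in all 18 libraries, and most other genes were under it in none. Some came close, with 14 genes under it in 16 libraries and 13 in 17. Of the remaining genes, 6054 were under it in no library and 207 in 1 to 17 libraries. The members closest to the limit were g3797 on contig 0, with a highest value of 0.489 CPM, and g2296 on contig 8, with 0.484 CPM. The closest genes on the other side were g1340 on contig 3, with a highest value of 0.504 CPM, and g4614 on contig 4, with 0.534 CPM.

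**Figure D1:**
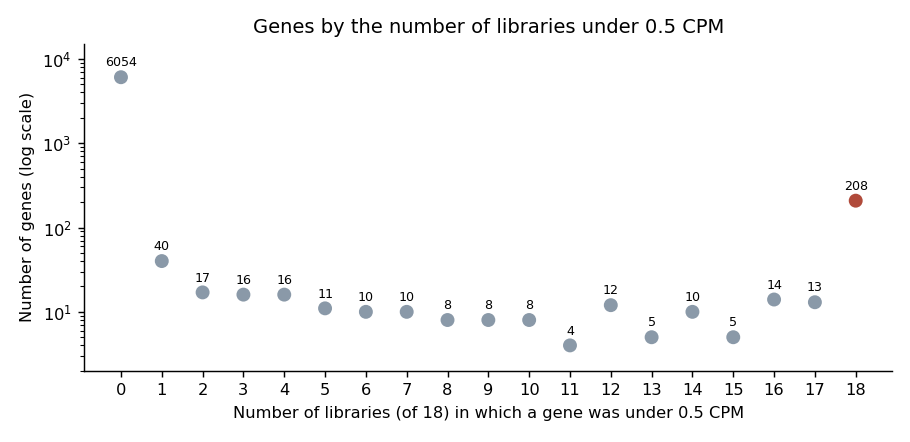
Number of genes (log axis) against the number of libraries, of 18, in which the gene was under 0.5 CPM. The silent genes are the 208 at 18 libraries and 6054 genes are at 0. From 1 to 17 libraries the counts lie between 40 genes (at 1) and 4 (at 11), with 13 at 17.

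For most members silent meant no read at all, but the label does not hold for every one. In the 18 libraries together, 125 of the 208 silent genes (60.1%) had no read, which allows a pooled level of up to 0.0104 CPM (3 counts of the summed libraries, counting error only). These 125 are all the genes of the table without a read. The other 83 members had 1 read or more: 14 had exactly 1 read, 34 had 1 to 3, 29 had 10 or more and 14 had 20 or more. Together the silent genes took 838 reads, and the 5 members with most reads held 214 of them (25.5%).

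The member with most reads, g2122 on contig 8, was detected in all 18 libraries at a low level. Its reads in libraries A, B and C were 3, 8 and 4 in wild type (N), 4, 3 and 3 in wild type (Ne), 3, 5 and 1 in sre1-, 5, 3 and 4 in cyp61-, 2, 6 and 3 in cyp61- sre1- and 2, 2 and 8 in the tagged strain. That makes 69 reads, a pooled level of 0.239 CPM and a highest level of 0.474 CPM, and the ranges of all 6 groups overlap. For this gene the word silent means low and not unread.

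The next members by reads were g44 and g620 on contig 1 and g3767 on contig 0, the last of which tied with g620. Gene g44 had 42 reads, with 1, 1 and 5 in wild type (N), 2, 1 and 3 in wild type (Ne), 0, 2 and 1 in sre1-, 3, 5 and 2 in cyp61-, 3, 3 and 0 in cyp61- sre1- and 2, 7 and 1 in the tagged strain. Gene g620 had 35 reads, with 0, 3 and 6 in wild type (N), 0, 3 and 0 in wild type (Ne), 0, 5 and 1 in sre1-, 2, 1 and 2 in cyp61-, 1, 3 and 3 in cyp61- sre1- and 0, 1 and 4 in the tagged strain. In neither gene did any group stand apart from all the others. Gene g3767 also had 35 reads, with 4, 1 and 4 in wild type (N), 1, 3 and 1 in wild type (Ne), 0, 1 and 0 in sre1-, 0, 3 and 2 in cyp61-, 4, 6 and 3 in cyp61- sre1- and 1, 0 and 1 in the tagged strain. Its reads in cyp61- sre1- lay above those in sre1- and the tagged strain and overlapped those of the other groups. All 4 members with most reads are singles, with no silent gene at the next lower or higher number.

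The silent genes were not spread evenly over the assembly. The gene models lie on 22 contigs, of which 11 are large (335 to 895 genes) and 11 are short (2 to 14 genes). On the short contigs 54 of 57 genes (94.7%) were silent, against 154 of 6412 (2.40%) on the large ones. On 8 short contigs, numbered 11, 12 and 14 to 19, all 47 genes were silent. The 17 genes of contigs 12, 14, 17 and 18 had no read in any library.

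Among the large contigs, contig 7 held most silent genes, 38 of 468 (8.12%), followed in share by contig 8 with 16 of 397 (4.03%) and contig 0 with 29 of 895 (3.24%). Contig 10 held the fewest, 3 of 335 (0.896%). The remaining 7 large contigs held 5 to 14 silent genes each.

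Only 3 genes on short contigs were not silent. Reads of g2976 and g6107 were most uneven within wild type (N) and the tagged strain. Gene g2976 on contig 20 had 88, 7 and 9 reads in wild type (N), 15, 54 and 31 in wild type (Ne), 32, 37 and 12 in sre1-, 5, 7 and 4 in cyp61-, 6, 15 and 7 in cyp61- sre1- and 596, 70 and 7 in the tagged strain. Gene g6107 on contig 21 had 51, 0 and 5 reads in wild type (N), 13, 29 and 32 in wild type (Ne), 29, 17 and 15 in sre1-, 7, 5 and 8 in cyp61-, 7, 9 and 9 in cyp61- sre1- and 181, 25 and 3 in the tagged strain. In both genes library A of the tagged strain was the highest of all, at 64.1 CPM for g2976 and 19.5 CPM for g6107, and library A was also the highest of wild type (N).

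The third, g6103 on contig 13, showed a different pattern. It had 47, 80 and 74 reads in wild type (Ne) and 60, 77 and 40 in sre1-, then 2 reads in library A of the tagged strain and none in any other library. Its 6 highest libraries are those whose column headers lack the words paired and trimmed, as described below.

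Silent genes mostly had neighbouring numbers. Of the 208, 160 (76.9%) had a silent gene at the next lower or higher number on the same contig, and they formed 31 runs; the other 48 were singles. The share of all genes with a silent gene at a neighbouring number was 4.25%, and that of the genes that were not silent was 1.84%. No label or header says whether the numbers follow the order along the contig, and places below are places in the numbering.

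The longest run was g2950 to g2975, the last 26 genes of contig 7. Together these 26 genes had 7 reads, and 23 of them had none. The second, g2980 to g2997, comprised 18 genes of contig 0 close to its first number, with 18 reads in all and 14 genes without one. The third was g2097 to g2110, the whole of contig 11, where 14 genes had 5 reads and 11 had none.

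Beyond these 3 runs, 8 more had 5 genes or more, and the 11 together held 105 silent genes. On contig 5 the first 6 genes, g1520 to g1525, had no read, and the same was true of the 6 genes g3873 to g3878 that make up contig 12. In all, 20 runs holding 114 genes reached the first or the last number of a contig. They include the 8 wholly silent contigs with 47 genes, where a run reaches both ends by construction.

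**Figure D2:**
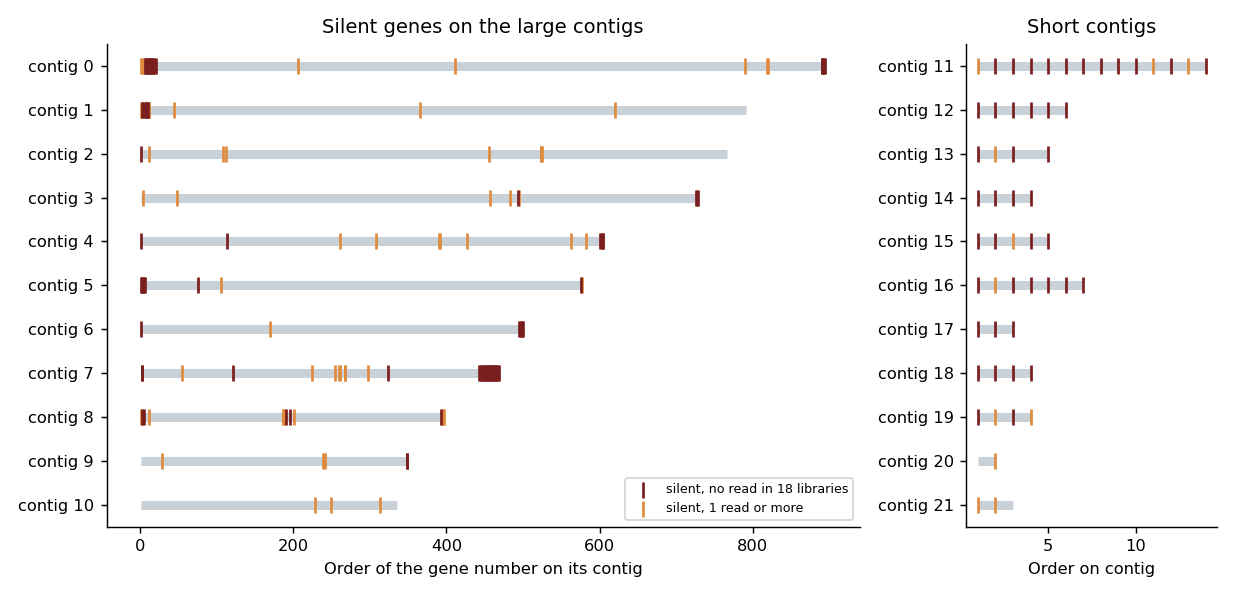
Order of each silent gene in the numbering of its contig (horizontal axis, genes), one row per contig, for large (left) and short (right) contigs. Grey bars span all genes of a contig, dark ticks are silent genes with no read and orange ticks those with 1 read or more. Marks crowd at the ends of the large contigs, form a run of 26 genes at the last end of contig 7, and fill 8 of the 11 short contigs.

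The members in runs and the singles differed in their reads. Of the 160 genes in runs, 114 (71.3%) had no read in any library, against 11 of 48 singles (22.9%). The singles held 554 of the 838 reads and the runs 284. The limit on CPM acts on both alike, but the number of reads is part of the choice, so these shares are a description.

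On the large contigs, the share of silent genes fell with the distance from the contig end, counted in genes. It was 54 of 110 genes (49.1%) at places 1 to 5 from an end, 18 of 110 (16.4%) at places 6 to 10 and 24 of 220 (10.9%) at places 11 to 20. At places 21 to 50 it was 12 of 660 (1.82%), and further in 46 of 5312 (0.866%). The median distance to the nearer end was 11 genes for silent genes and 145 for all genes of these contigs.

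**Figure D3:**
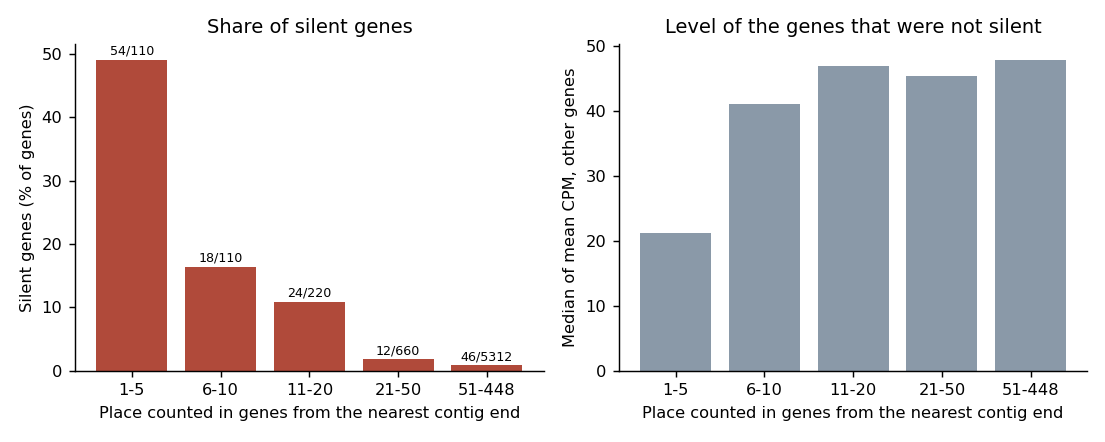
Bars show, for the 11 large contigs by place from the nearer contig end in genes, the share of silent genes in percent (left, labelled silent over all genes) and the median of the mean CPM of the genes that were not silent (right). The share is 49.1% in the 5 outermost places and 0.866% beyond place 50, and the median is 21.2 CPM in the former and 48.0 CPM in the latter.

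The genes that were not silent also had lower levels at the outermost places. Their median level (mean CPM over the 18 libraries) was 21.2 CPM at places 1 to 5 and 41.1, 46.9, 45.5 and 48.0 CPM in the 4 classes further in. Beside a silent gene, the 115 genes that were not silent had a median of 18.1 CPM, against 47.7 CPM for those not beside one. Under 1 CPM were 18.3% of the former and 1.42% of the latter.

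The ends of the large contigs were unlike one another. Of 22 ends, 15 had a silent gene at the outermost number, 8 had 5 or more silent genes among the outer 10, and 5 had none there. Those 8 ends held 77 of the 96 silent genes found within 20 genes of an end. Both ends of contig 10 had none among the outer 10 or the outer 20. On contig 1 the first end had 9 among its outer 10 and the last end had none.

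Together, short contigs and the outer 20 genes of the large contigs held 150 of the 208 silent genes (72.1%) and 497 of all 6469 genes (7.68%). The other 58 lay in the interior of the large contigs, among 5972 genes there (0.971%), and 37 of them were singles. No read was found for 43 of 54 members on short contigs (79.6%), 71 of 96 near an end (74.0%) and 11 of 58 in the interior (19%). Of the 838 reads, 59 fell on members on short contigs, 223 on those near an end and 556 on those in the interior.

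The stray reads were few in every strain and had their highest mean rates in wild type (Ne) and sre1-. Summed over all silent genes, the level was 2.39, 2.55 and 3.29 CPM in libraries A, B and C of wild type (N), 2.09, 2.17 and 2.48 in cyp61-, 2.21, 3.31 and 1.86 in cyp61- sre1- and 2.69, 1.96 and 1.84 in the tagged strain. It was 4.27, 4.82 and 4.24 in wild type (Ne) and 3.47, 6.14 and 2.56 in sre1-. The mean levels in CPM were 2.74 ± 0.480 (SD, n = 3) in wild type (N), 2.25 ± 0.210 in cyp61-, 2.46 ± 0.755 in cyp61- sre1-, 2.16 ± 0.458 in the tagged strain, 4.44 ± 0.324 in wild type (Ne) and 4.06 ± 1.86 in sre1-, each with n = 3.

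The 3 libraries of wild type (Ne) were above all 12 libraries of the first 4 groups, while those of sre1- overlapped them, library C being at 2.56. The column headers of the 4 groups with the lower means describe their reads as paired and trimmed, and those of wild type (Ne) and sre1- do not. Whether these tables were made differently is not stated. Wild type is in both kinds of table, and there, with the same genotype in the labels, the ranges did not overlap, at 2.39 to 3.29 CPM and 4.24 to 4.82 CPM. Each mutant strain is in 1 kind, so for sre1- against the other mutants strain and kind of table cannot be told apart. Without the 5 members with most reads the means were 1.75 in wild type (N), 3.79 in wild type (Ne), 3.45 in sre1-, 1.51 in cyp61-, 1.67 in cyp61- sre1- and 1.56 in the tagged strain.

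**Figure D4:**
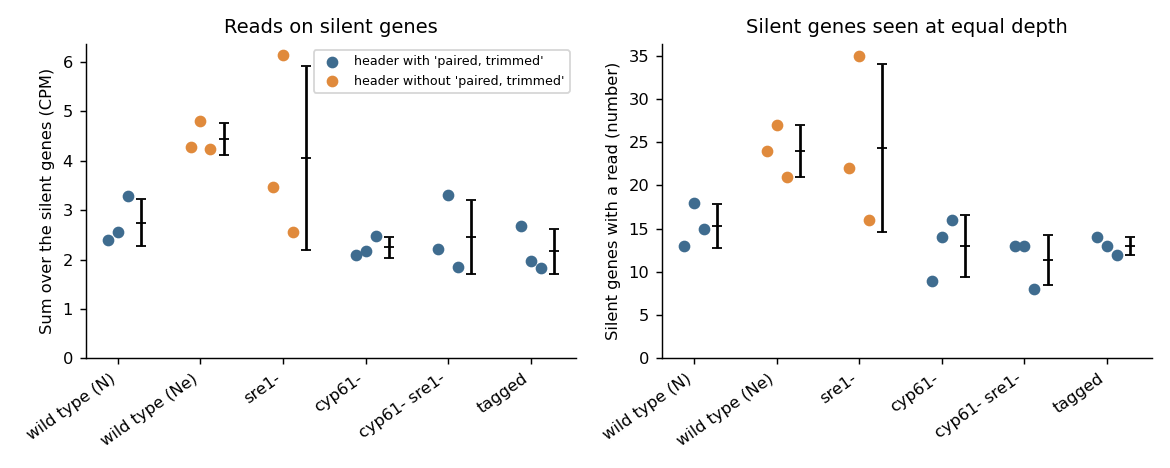
Summed level of the silent genes in CPM (left) and number of silent genes with a read after thinning to 9300589 counts (right), 1 point per library, coloured by whether the column header says paired and trimmed, with the group mean and SD in black, n = 3 each. On the left, libraries of wild type (Ne) and sre1- range from 2.56 to 6.14, and those of the other 4 groups from 1.84 to 3.31.

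The number of silent genes with a read was also highest in those groups. It was 18 to 21 per library in wild type (N), 18 to 22 in cyp61-, 16 to 22 in cyp61- sre1- and 14 to 19 in the tagged strain, against 29 to 35 in wild type (Ne) and 21 to 43 in sre1-. With every library thinned to 9300589 counts, the numbers were 13 to 18, 9 to 16, 8 to 13 and 12 to 14 in those 4 groups, and 21 to 27 and 16 to 35 in wild type (Ne) and sre1-. The smallest thinned number in sre1- (16, library C) lay within the range of wild type (N).

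Most members with stray reads had them in more than 1 strain group. Of the 83 members with a read, 8 had reads in all 6 groups, 57 in 2 to 5 groups and 18 in 1 group. Members with a read in one group alone numbered 7 in sre1-, 4 in wild type (N), 3 in wild type (Ne), 3 in cyp61-, 1 in cyp61- sre1- and 0 in the tagged strain. No member had reads in all 3 libraries of one group and none elsewhere. By kind of table, 20 members had reads in the 6 libraries of wild type (Ne) and sre1- alone, 12 in the other 12 libraries alone and 51 in both. Total counts per group ran from 36384291 in sre1- to 54764783 in cyp61- sre1-, and the kinds of table differ in their number of libraries. The same counts were not made over all genes, so these numbers describe the members and are not read as a trait of theirs.

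Both outer and interior members had their highest mean rates in wild type (Ne) and sre1-. Members on short contigs or near an end took 1.46 ± 0.389 and 1.75 ± 1.00 CPM (SD, n = 3) in wild type (Ne) and sre1-, and 0.564 ± 0.262 to 1.05 ± 0.405 in the other 4 groups. Members in the interior took 2.98 ± 0.291 and 2.3 ± 0.859 against 1.11 ± 0.0730 to 1.93 ± 0.657. The lowest of these interior means was that of the tagged strain.

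To compare the strains on libraries that the choice did not use, each group was left out of the choice in turn, and the genes silent in the other 15 libraries were read in its 3 libraries. The cyp61- strain and cyp61- sre1- each had 0 such genes at the main setting: 208 genes were silent without them, and all 208 were silent in them too. For wild type (N), 8 of 216 such genes were not silent in it; for wild type (Ne) it was 5 of 213, for sre1- 7 of 215 and for the tagged strain 2 of 210. These small counts moved with the scaling: with TMM library sizes they were 3 in wild type (N), 8 in wild type (Ne), 3 in sre1-, 1 in cyp61-, 0 in cyp61- sre1- and 2 in the tagged strain, so that the order of the wild-type sets turned. With thinned counts they were 3, 6, 5, 1, 1 and 1 in the same order of groups, and without library A or B of wild type (N) the count there was 5. The genes named below were picked for a high level in the group left out and a low level elsewhere. That contrast is fixed by the choice and is given as a description. Of the 22 genes at the main setting, 1 was at or over the limit in all 3 libraries of its group.

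That gene was g2404 on contig 8, in the tagged strain. It had 15, 10 and 19 reads there, a level of 1.03 ± 0.541 CPM (SD, n = 3), and at most 0.399 CPM in any other library. The second of the tagged strain, g5427 on contig 2, had 8, 4 and 13 reads, so that library B was under the limit.

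In sre1- the genes with the highest mean levels were neighbours by number on contig 5. Gene g2014 had 21, 20 and 4 reads in sre1-, a level of 1.27 ± 0.849 CPM (SD, n = 3), against at most 0.419 CPM elsewhere, and g2013 had 12, 6 and 7 reads, or 0.705 ± 0.338 CPM. The next number, g2015, was looked at after these values were seen. It had 1371, 2346 and 1116 reads in sre1- and 493, 555 and 275 in wild type (Ne). The log2 fold change was 1.99 ± 0.28 (SE), with an adjusted p of 0.00463 by edgeR's quasi-likelihood test with Benjamini-Hochberg adjustment. That fit had no replicate block, although deviations from the group means correlated between libraries of the same letter in these groups. Gene g2015 had 107, 154 and 136 reads in wild type (N) and 35, 34 and 24 in cyp61-. It had 45, 60 and 54 in cyp61- sre1- and 3, 10 and 16 in the tagged strain. Reads of overlapping neighbours may not be told apart in these counts, and their part in g2013 and g2014 was not tested.

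In each wild-type set the genes named here were at low levels. For wild type (N), g2773 had 32, 0 and 0 reads and g2175 had 8, 8 and 12. For wild type (Ne), g6341 had 7, 7 and 17 reads and g1284 had 11, 8 and 3.

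A kind of table was also left out in place of a strain, a choice made after seeing the data. This leaves out 6 or 12 libraries at once and not 3, so its counts are not comparable with those above. Of 231 genes silent in the 12 libraries with described headers, 208 (90.0%) were silent in the other 6 as well, and 2 were at or over the limit in all 6. One is g6103, at 4.75 ± 1.17 CPM in the 6 (SD over 6 libraries of both strains) against at most 0.215 in the 12. The other is g5767 on contig 6, at 1.58 ± 0.877 against at most 0.335. In the opposite direction, 208 of 235 genes (88.5%) silent in the 6 were silent in the 12. Gene g836 on contig 3 was at or over the limit in all 12, at 2.46 ± 0.600 CPM (SD over 12 libraries) against at most 0.479. The genes named here were picked by that contrast too, so it is given as a description.

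The members were also looked up in edgeR's quasi-likelihood test across all genes with a read, 6344 genes of which 83 were silent genes, with Benjamini-Hochberg adjustment over all of them. The members were chosen on the same counts, and a member entered the fit only through the libraries where it had reads. The usual filter on low counts keeps 6228 genes and no silent gene. The calls are therefore given as a description, with no p-value or fold, and the shares of all genes called are background from which nothing is read. These shares belong to the main fit, and none was computed for the alternative settings.

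Against wild type (N), 1 silent gene was past the threshold in cyp61- (31.4% of all genes tested were called). It was g2311 on contig 8, with no read in wild type (N), 1, 6 and 3 reads in cyp61-, 4, 2 and 4 in wild type (Ne), 2, 2 and 2 in sre1-, 4, 0 and 1 in cyp61- sre1- and none in the tagged strain. Its reads in cyp61- overlapped those of wild type (Ne), sre1- and cyp61- sre1-. The call was lost without any one library of wild type (N), without library B or C of cyp61-, when the 2 groups were fitted alone and with the replicate block, with 0 silent genes called in each case.

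Set against wild type (N), the tagged strain had 1 silent gene past the threshold (53.4% of all genes). It was g4654 on contig 4, with 0, 1 and 0 reads in the tagged strain and 2, 2 and 7 in wild type (N). In the other groups it had 2, 1 and 1 reads in wild type (Ne), 3, 0 and 0 in sre1-, 4, 2 and 2 in cyp61- and 0, 5 and 1 in cyp61- sre1-. The call was lost by DESeq2, when the 2 groups were fitted alone, with the replicate block, and without library C of wild type (N) or any one library of the tagged strain. Without library C of the tagged strain 1 other silent gene was called, in the opposite direction.

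No silent gene was called in cyp61- sre1- against wild type (N) (0.757% of all genes), where edgeR gave 1 member at an unadjusted p under 0.05 and DESeq2 called 0. None was called in cyp61- sre1- against cyp61- (22.1% of all genes), with 1 member at an unadjusted p under 0.05 and 0 by DESeq2. None was called in sre1- against wild type (Ne) (0.236% of all genes), with 3 members at an unadjusted p under 0.05 and 0 by DESeq2. How often the test finds a change at such low counts is not given here. The absence of a call is therefore not read as the absence of a change.

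Between the wild-type sets, 7 silent genes were past the threshold (52.6% of all genes were called). All 7 had no read in wild type (N) and 7 to 15 reads in wild type (Ne). Gene g3797 had 1, 7 and 7 reads in wild type (Ne) and 3, 0 and 0 in cyp61- sre1-, with none in the other groups. Gene g2296 had 6, 0 and 6 reads in wild type (Ne), 3, 0 and 1 in cyp61- sre1- and 0, 2 and 0 in the tagged strain. The count was 4 without any one library of wild type (N), 2 without library C of wild type (Ne), 3 when the 2 groups were fitted alone and 2 by DESeq2. These tables are of the 2 kinds described above, so table and library set cannot be told apart.

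The study's ChIP-exo peak lists, one for each tagged strain (the FLAG-SRE1N strain and the cyp61- strain with the tag), cover the contigs of the silent genes too. A peak is a stretch of DNA with more reads than its background, fold enrichments are the authors' own, and peaks of a list that share a base were merged into loci. Large contigs had 10.9 loci per 100 genes in the FLAG-SRE1N list and 8.14 in the cyp61- list. The 8 wholly silent contigs had 16 loci for 47 genes (34.0 per 100 genes) in the former and 41 (87.2 per 100 genes) in the latter. The median fold there was 1.76 and 2.08, against 4.29 and 6.63 on the large contigs. Contig lengths are not in the files, and loci per gene rise where genes are sparse.

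The lists divided the short contigs into groups, a division made after seeing them. Contigs 12, 13, 14, 17 and 18, with 21 silent genes of 22, had 40 loci in the cyp61- list and 1 in the FLAG-SRE1N list. Contigs 11, 15, 16 and 19, with 30 genes, all silent, had 9 and 15. Folds of the 40 loci were 1.46 to 2.43. The lists are 1 per strain for all replicates, so there is no replicate check of a difference between them.

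On contigs 12, 13, 14, 17 and 18 many loci of the cyp61- list lay at 1 spacing. Of 145 pairs of loci up to 50000 bases apart, 21 (14.5%), on all 5 contigs, had centres 8600 to 8900 bases apart, with a median of 8762 bases. On contig 12, in the assembly that the files name QXden1.PacBioOnly, loci at 3244 to 3689, 12132 to 12439, 20768 to 21169 and 29517 to 29932 show such steps, with folds of 2.17, 1.68, 1.82 and 1.85. On the large contigs 15 of 772 pairs (1.94%) in the same list had that distance, and in the FLAG-SRE1N list 13 of 1271 (1.02%). The distance window was set after seeing the positions.

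Of those 15 pairs, 5 lay on contig 0, 4 on contig 5 and 2 on contig 9, all in the last 60 kb before the last peak of the contig. The last 10 genes of these contigs included 5, 2 and 2 silent genes. Those of contigs 7, 6, 4, 8, 1 and 2, with no such pair in that list, included 10, 6, 5, 5, 0 and 0. The other pairs, 2 each on contigs 3 and 10, lay elsewhere. On contig 7, whose last 26 genes by number are silent, the FLAG-SRE1N list held 7 loci in the last 80 kb before its last peak. Genes have no position here, so whether the run lies beside these loci is not known. The loci had folds of 1.70 to 1.96. Their centres were 9754.5, 9622, 9621, 19504, 19288.5 and 9886 bases apart, and the cyp61- list held 2 loci there.

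**Figure D5:**
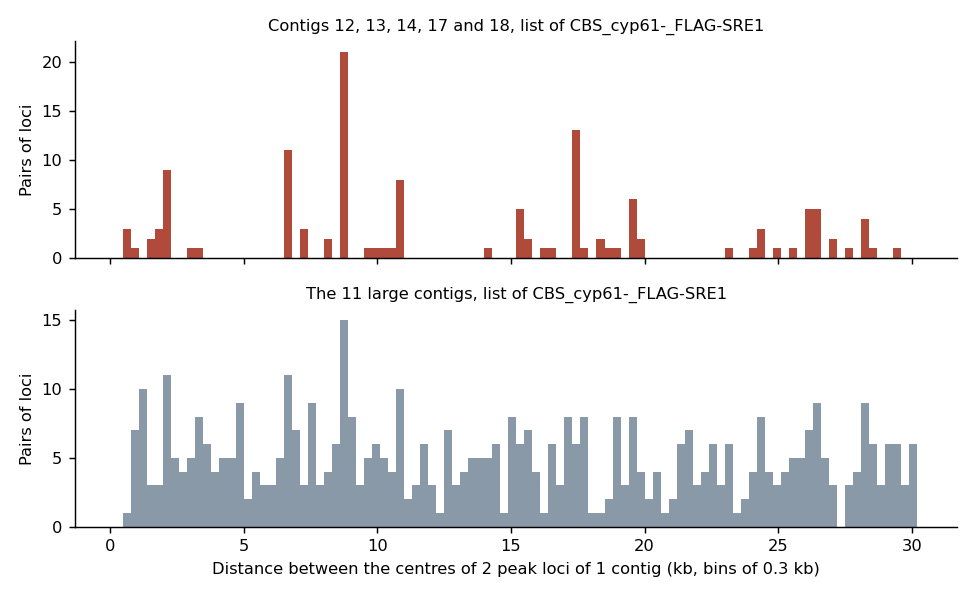
Number of pairs of peak loci of the cyp61- list by the distance between their centres (kb) on contigs 12, 13, 14, 17 and 18 (top) and on the 11 large contigs (bottom). Distances of 8600 to 8900 bases form the tallest bar in both, with 21 pairs on the 5 short contigs and 15 on the large ones. The bins were placed so that this window, set after seeing the positions, is a single bar.

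Peaks also sat at the very start of some contigs whose first genes were mostly not silent. On contigs 2, 3, 4, 7 and 9 both lists had a peak beginning within the first 50 bases, with highest folds of 2.82 to 3.63 in the FLAG-SRE1N list and 6.03 to 10.6 in the cyp61- list. Their first 10 genes included 1, 1, 1, 2 and 0 silent genes. On contigs 0, 1, 5, 6, 8 and 10, with no peak there, the first 10 genes included 9, 9, 6, 1, 4 and 0. Setting genes beside peaks in this way assumes that the numbering runs from the first base, which the sources used here do not state.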

How the data were processed

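RNA-seq was measured in 18 libraries of 6 groups of 3. The authors deposited whole-number counts per gene, per the file headers, in 1 table per group; all headers but those of wild type (Ne) and sre1- describe paired, trimmed reads. The wild type (Ne) headers lack the e, and that table was assigned through the sample description. Paired-end reads were mapped to the species' assembly, per the design text. The submitters' processing notes name Bowtie2 2.3.5.1, SAMtools, DESeq2, edgeR, MACS2, bedtools and deepTools with no roles. For counting tool, strand and reads matching several genes, the sources give nothing, so that copies of a gene may share reads. ChIP-exo peaks carry a deposited fold ratio over background, per the file headers; peaks per tagged strain stand for all 3 replicates, per the labels, with control and cutoffs not given there. Other ChIP-exo libraries and shape-score tables were not used here.

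CPM was the count over the column sum times 1000000. Members and lists were chosen with earlier results of these data known. Neighbours are consecutive numbers on one contig; large contigs have at least 100 genes, and a contig end is its outer 20 genes. Counts were tested with edgeR 4.0.16 (quasi-likelihood, TMM, all 6 groups in one fit, R 4.3.3, limma 3.58.1) on all genes with a read, at an adjusted p under 0.05, and with DESeq2 1.42.0 as an alternative; the script was checked on simulated data. Tables were handled in Python 3.11.15 with pandas 2.3.3 and numpy 2.4.6. Genes named are the 3 members with most reads (4 with a tie), the 3 longest runs, the 2 genes nearest the limit on each side, for each group left out the 2 with the highest mean, and up to 2 called members per direction; others are marked or were named as contig contents. Replicates are biological, per the design text. Deviations from the group mean correlated between sre1- and wild type (Ne) libraries of the same letter (A, B and C), at 0.36, 0.53 and 0.64. In the other comparisons these correlations were -0.23 to 0.31. Libraries of unlike letters were not compared, so a pairing by letter is not established. Total counts set the precision: at 0 reads, 3 counts of the summed libraries bound the level, for counting error only. Alternatives were limits of 0.25 and 1 CPM, a limit on the mean CPM, thinned counts, TMM and DESeq2 size factors. Others were leaving out single libraries, a replicate block and fits of the compared groups alone.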

Additional observations from a re-analysis of the deposited data

How the results depend on the processing

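Of 212 alternatives over the results, 166 left the value within the limits set for it and 46 moved it. Some could not move it, since a gene with no read stays silent under any limit or scaling. Leaving out a library can only keep or raise the numbers of silent and unread genes. The tally is therefore not a measure of robustness. The number of silent genes stayed at 208 to 211 when any single library was left out, those beside another silent gene at 160 to 163 and those with no read at 125 to 130. The limit moved the number of silent genes further: it was 185 at 0.25 CPM, 242 at 1 CPM and 257 with the limit on the mean CPM. With TMM, DESeq2 size factors or thinned counts it was 204. Those beside another silent gene were 145 at 0.25 CPM, 171 at 1 CPM and 184 by the mean. These values counted as within the limits set. The filter on low counts gave no value, since no silent gene passes it. Stray reads of a few members weigh on the rates: without the 5 members with most reads the mean summed level in CPM was 1.75 in wild type (N), 3.79 in wild type (Ne), 1.51 in cyp61-, 1.67 in cyp61- sre1- and 1.56 in the tagged strain, and with TMM library sizes it was 5.71 in wild type (Ne) and 1.92 in cyp61-. Leaving out 1 library, the tagged strain was at 1.90 to 2.33, cyp61- sre1- at 2.03 to 2.76, cyp61- at 2.13 to 2.33, sre1- at 3.01 to 4.80 and the wild-type groups at 2.47 to 2.92 (N) and 4.26 to 4.54 (Ne). The cause of these moves was not tested.

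Counts of genes silent in the other 5 groups and not in the one left out are small and moved with the setting. At a limit of 0.25 CPM they were 3 in wild type (N), 3 in wild type (Ne), 1 in cyp61- sre1- and 4 in the tagged strain, and at 1 CPM 3 in cyp61-. With TMM they were 3 in wild type (N), 8 in wild type (Ne), 3 in sre1- and 1 in cyp61-. After thinning they were 3 in wild type (N) and 1 in each of cyp61-, cyp61- sre1- and the tagged strain. Counting only genes over the limit in all 3 libraries left 0 in wild type (N), wild type (Ne) and sre1- and 1 in the tagged strain. Without single libraries they were 5 to 8 in wild type (N), 4 in wild type (Ne), 5 to 6 in sre1-, 0 in cyp61- and in cyp61- sre1- and 2 in the tagged strain. Leaving out a kind of table, added after seeing the data, gave 50 genes; it leaves out 6 or 12 libraries and not 3, so a larger count follows from its construction.

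The silent genes called by edgeR were 0 for cyp61- and 0 for the tagged strain, each against wild type (N), and 3 between the wild-type sets when only the groups compared were fitted. DESeq2 called 0 for the tagged strain and 2 between the wild-type sets. With the replicate block they were 0 for cyp61-, 0 for the tagged strain and 5 between the wild-type sets. Between those sets the correlations of same-letter libraries were -0.11, -0.23 and 0.11. The block changed no call between sre1- and wild type (Ne), where same-letter libraries correlated more, with 0 called in both fits. Without single libraries the counts were 0 to 1, 0 to 1 and 2 to 5, and 0 in the other 3 comparisons. The members called between the wild-type sets had at most 15 reads in a group, and how the calls change with depth was not tested. Shares of all genes called were not computed for these settings. A change in these counts is therefore not set apart from a general change in calls.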
